A study of Homo sapiens with 6 samples.

Results

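The protein-coding genes of chromosome 11 were followed in OVCAR3, a human ovarian carcinoma line, given either of a pair of vectors. They are the genes that the deposited comparison table places on that chromosome and types as protein-coding, 888 of the 15761 protein-coding genes and of 27104 genes in all. The stretches from 0 to 10 Mb and from 60 to 80 Mb, by gene start in GRCh38, were picked because their genes were higher together in these same libraries, and their differences are therefore given as a description, with no test. There were 124 members in the first 10 Mb, 318 between 60 and 80 Mb and 446 on the rest of the chromosome. Averaged over the 6 libraries, at least 1 FPKM was reached by 663 of the 888 members, 90, 253 and 320 in these places, and the other 225 are described by level only. FPKM is the number of sequenced fragments per kilobase of gene, scaled to library size, so it can be set side by side between genes.

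The groups were 3 libraries labelled DAB2IP O/E, written as labelled O/E below, from cells given a vector made to overexpress DAB2IP, a scaffold with a Ras GTPase-activating domain, and 3 libraries labelled empty vector. All were of the same line at passages 20 to 25, and RNA with poly-A tails was sequenced with a stranded kit. The transfections were triplicate, per the labels, which do not tell of separate starting cultures, so the p-values reflect only a spread between libraries that may be technical. DAB2IP itself had 5.74, 5.02 and 5.73 FPKM in the libraries labelled O/E, against 7.49, 7.76 and 8.01 FPKM in the empty vector libraries. Its log2 change was −0.43 at an adjusted p of 0.00548 (limma, Benjamini-Hochberg), so the counted level of the targeted gene went against the label. Whether the labels were exchanged, or whether reads from the vector were left out of the count, was not tested, and directions below go by the label alone. The recovered depth was 24743563 to 35434533 reads in the libraries labelled O/E and 20445867 to 28116259 reads in the empty vector libraries. The labels' extraction protocol names adipocytes as the source, and the 4 of 7 adipocyte markers in the table summed to 0.468 to 0.597 FPKM in the libraries labelled O/E and 0.514 to 0.644 FPKM in the empty vector libraries. The 9 markers of ovarian cancer epithelium were mixed, with the keratin genes KRT8, KRT18 and KRT7 called higher, WT1 called lower and 5 not passing. Their sum, most of it from the keratins, was 1137 to 1193 FPKM in the libraries labelled O/E, against 862 to 908 FPKM in the empty vector libraries. In bulk RNA fewer cells of a type and less RNA per cell cannot be told apart, and the part of that sum in the results for chromosome 11 was not tested. The highest sum of fibroblast, leukocyte or endothelial markers in a library was 2.48 FPKM, for fibroblasts.

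Chromosome 11 carries an imprinted gene domain, the beta-globin cluster, HRAS and many olfactory receptor genes toward the end of its short arm. The proximal long arm, band q13, is among the most gene-dense and GC-rich parts of the genome and holds CCND1, CTTN and PAK1, which lie in regions often amplified in carcinomas. The distal long arm holds the DNA damage kinases ATM and CHEK1 and a cluster of matrix metalloprotease genes.

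Promoters are shown for the gene with the largest called difference in each raised part for which the RefSeq table had one, TSPAN4 in the first 10 Mb, SSSCA1 from 60 to 70 Mb and KLHL35 from 70 to 80 Mb, and for WT1, the largest called fall on the rest of the chromosome with an entry there. Each runs from 250 bases before the start to 50 after it, 5′ to 3′, and capitals mark the GC box GGGCGG on either strand, the sequence bound by Sp1-type factors. TSPAN4 lies on the plus strand (chr11:842602-842901), SSSCA1 on the plus strand (chr11:65570227-65570526), KLHL35 on the minus strand (chr11:75433154-75433453) and WT1 on the minus strand (chr11:32435490-32435789), all in GRCh38.p14.
TSPAN4: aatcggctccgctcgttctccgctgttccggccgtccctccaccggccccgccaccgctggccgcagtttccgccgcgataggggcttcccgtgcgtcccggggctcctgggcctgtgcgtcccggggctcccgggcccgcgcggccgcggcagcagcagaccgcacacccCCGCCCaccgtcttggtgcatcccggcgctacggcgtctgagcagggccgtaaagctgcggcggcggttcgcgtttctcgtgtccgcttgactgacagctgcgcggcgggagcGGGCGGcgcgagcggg
SSSCA1: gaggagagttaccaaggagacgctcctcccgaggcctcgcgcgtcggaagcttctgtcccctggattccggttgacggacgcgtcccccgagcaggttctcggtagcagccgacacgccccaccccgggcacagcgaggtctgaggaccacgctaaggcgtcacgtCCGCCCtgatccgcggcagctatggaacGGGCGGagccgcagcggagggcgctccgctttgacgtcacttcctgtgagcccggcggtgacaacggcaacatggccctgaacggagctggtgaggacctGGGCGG
KLHL35: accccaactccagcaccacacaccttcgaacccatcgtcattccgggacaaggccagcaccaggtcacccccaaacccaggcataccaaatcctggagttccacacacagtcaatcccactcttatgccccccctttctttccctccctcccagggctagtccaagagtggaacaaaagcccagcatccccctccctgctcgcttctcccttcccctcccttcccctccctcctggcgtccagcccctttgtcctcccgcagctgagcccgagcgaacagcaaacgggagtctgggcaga
WT1: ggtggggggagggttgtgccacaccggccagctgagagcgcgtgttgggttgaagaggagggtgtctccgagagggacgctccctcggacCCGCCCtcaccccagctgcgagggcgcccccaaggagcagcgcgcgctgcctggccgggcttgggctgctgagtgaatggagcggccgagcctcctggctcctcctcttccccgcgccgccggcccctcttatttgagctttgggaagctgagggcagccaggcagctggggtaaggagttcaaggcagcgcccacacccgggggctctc
The 4 promoters held 2, 3, 0 and 1 GC boxes in that order, and their GC content was 75.3%, 68%, 61% and 70%. Promoters were matched for 529 of the 663 members tested. The GC box occurred in 75.4% of the 69 promoters matched in the first 10 Mb, 73.2% of the 198 between 60 and 80 Mb and 67.6% of the 262 on the rest of the chromosome. It occurred in 71.8% of the 8553 promoters of tested protein-coding genes on other chromosomes and in 44.95% of all 35116 promoters in the table. The promoters of the raised parts thus held it about as often as those of other expressed genes.

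Genes of both raised parts were higher in the libraries labelled O/E by a similar and small amount. The log2 change, the difference of mean log2(FPKM + 1) between the groups, had a median of 0.23 over the 90 genes tested in the first 10 Mb, of 0.20 over the 253 between 60 and 80 Mb and of −0.028 over the 320 on the rest of the chromosome. It was 0.20 over 184 genes from 60 to 70 Mb and 0.18 over 69 from 70 to 80 Mb, and −0.036 over 144 from 10 to 60 Mb and −0.026 over 176 beyond 80 Mb. The median was −0.0046 over the 10628 protein-coding genes tested on other chromosomes and −0.00042 over all 14761 genes tested. As ratios of mean FPKM without the added 1, the medians were 1.21, 1.17 and 0.973 in the 3 places. In the first 10 Mb 81 of 90 genes had a positive log2 change, between 60 and 80 Mb 220 of 253 and on the rest 133 of 320. The quartiles lay between 0.12 and 0.35 in the first 10 Mb, between 0.10 and 0.30 from 60 to 80 Mb and between −0.12 and 0.091 on the rest.

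A gene was called where its adjusted p was below 0.05 (limma, Benjamini-Hochberg over the 14761 genes tested). In the first 10 Mb 39 of 90 genes were called higher and 2 lower, where over all 11291 protein-coding genes tested 10.2% were called higher and 9.73% lower. Between 60 and 80 Mb 106 of 253 were called higher and 4 lower, and on the rest of the chromosome 31 of 320 were called higher and 25 lower. All 3 values of the libraries labelled O/E lay above all 3 empty vector values in 63 of 90, 157 of 253 and 74 of 320 genes in these places, where the share over all protein-coding genes tested was 21.0%. Complete separation the other way held in 3, 11 and 72 genes, where the share over all protein-coding genes tested was 22.9%. Of the genes called, 1 of the higher in the first 10 Mb, 1 between 60 and 80 Mb and 2 on the rest averaged under 1 FPKM in the empty vector libraries, and 2 of the lower on the rest averaged under 1 FPKM in the libraries labelled O/E, so these passed the filter through 1 group. The raised parts were picked from this contrast, so nothing is read from these counts beyond the numbers. Without the third library labelled O/E the counts called higher were 15, 36 and 14, without the first such library 21, 41 and 18, and without the second empty vector library 22, 42 and 17. The shares of 10.2% and 9.73% belong to the fit with all 6 libraries. Shares for the fits with 1 library left out are not given here, so a fall in a count is not read as particular to a part.

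**Figure D1:**
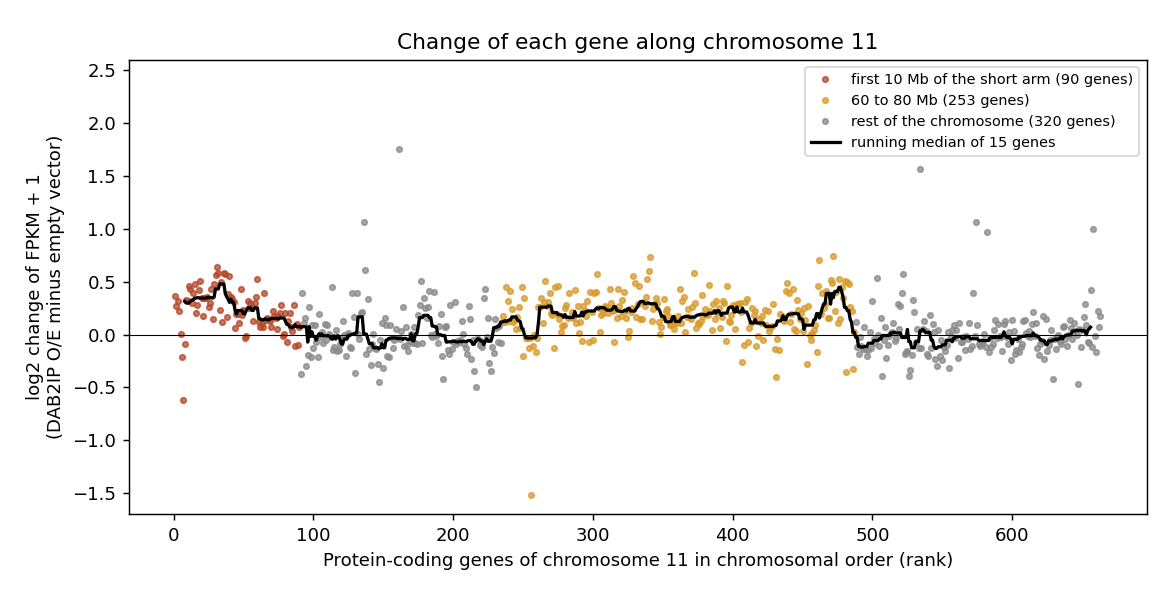
The log2 change of each of the 663 tested genes (points) is plotted against its rank in chromosomal order, with the running median of 15 neighbouring genes as a line. The line stays above 0 over most of the first 90 genes and over most of the 253 genes between 60 and 80 Mb, apart from a gap around FADS2. Elsewhere it runs mostly near 0, with short stretches above 0.1 from HTATIP2 to SVIP (4 genes) and from EXT2 to PHF21A (9 genes), while the largest positive values are grey points of the rest of the chromosome.

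Within the raised parts the size of the difference was uneven. In steps of 2 Mb the median log2 change was 0.34 over the 38 genes tested in the first step, 0.27 over 12 in the second, 0.26 over 8, 0.15 over 17 and 0.075 over the 15 between 8 and 10 Mb, so it became smaller away from the short-arm end. In the next step, from 10 to 12 Mb, it was −0.021 over 10 genes. On the long arm it was −0.072 over the 10 genes from 58 to 60 Mb, 0.12 over 23 from 60 to 62 Mb and 0.24 over 57 from 64 to 66 Mb. It reached 0.41 over the 13 genes from 76 to 78 Mb, where each of the 13 had a positive value, and was 0.24 over 8 from 78 to 80 Mb and −0.11 over the 5 from 82 to 84 Mb. The step from 76 to 78 Mb thus had a larger median than any step of the short-arm part. The median GC content of transcripts was 61.6%, 58.2%, 44.5%, 50.7% and 47.9% over the successive steps of the short-arm part and 47.8% from 76 to 78 Mb. The part of GC content in the differences between steps was not tested.

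The limits of the raised parts are round positions set when the parts were picked, so the tested genes nearest them are given as a description. Just inside 10 Mb lay WEE1, a mitotic inhibitor kinase, SWAP70 and SBF2, with log2 changes of 0.10, −0.10 and 0.075, and just outside lay the peptide hormone gene ADM with −0.38, MTRNR2L8 with 0.39 and RNF141 with 0.11. MTRNR2L8 resembles mitochondrial sequence, so its reads are uncertain. At 60 Mb PATL1, STX3 and MRPL16 lay outside with −0.068, 0.078 and −0.076, and CCDC86, PRPF19 and TMEM109 inside with 0.12, 0.17 and 0.12. At 80 Mb USP35, GAB2 and NARS2 were the last inside, with 0.23, −0.33 and 0.022, and PRCP, DDIAS and PCF11 the first outside, with 0.12, −0.12 and −0.18. No tested member started between MRPL16 at 59.8 Mb and CCDC86 at 60.8 Mb, or between NARS2 at 78.4 Mb and PRCP at 82.8 Mb. The difference was small in the genes just inside the 10 Mb limit. IPO7, a little farther inside at 9.38 Mb, had 0.28 and was called higher. Just outside that limit ADM was called lower and MTRNR2L8 higher. The last called rise before the 80 Mb limit was USP35.

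Runs of neighbouring genes, chosen after their values were seen, stood out within and outside the raised parts. The 9 tested genes from FEN1 to AHNAK (starts from 61.8 to 62.4 Mb) all had negative log2 changes, with a median of −0.036 and no call. They include FADS1, FADS2 and FADS3, fatty acid desaturases, with −0.13, −0.032 and −0.033, the flap endonuclease FEN1 with −0.030 and the chromosomal passenger INCENP with −0.0026. They also include FTH1, the ferritin heavy chain, which at 2301, 2294 and 2237 FPKM in the libraries labelled O/E, against 2879, 2273 and 2255 FPKM in the empty vector libraries was the most abundant member. FTH1 shares 62.4% of its exon bases with BEST1, whose values of 2.47, 1.31 and 0.805 FPKM in the libraries labelled O/E, against 15.01, 6.18 and 1.98 FPKM in the empty vector libraries varied widely within each group. The next 16 genes, from EEF1G to BSCL2, had a median of 0.27, 15 positive and 12 called higher. The 25 genes from RPS3 to USP35, 75.4 to 78.2 Mb, had a median of 0.39, 24 positive and 18 called higher. Among those called was AQP11, which passed the filter only through the libraries labelled O/E. On the rest of the chromosome the 8 genes from EXT2 to LARGE2, 44.1 to 45.9 Mb, had a median of 0.27, 7 positive and 4 called higher.

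The same parts stood apart in the medians of single libraries, on which they were chosen. Taking each gene's deviation from its mean over the 6 libraries, the median over the first 10 Mb was 0.16, 0.079 and 0.11 on the log2(FPKM + 1) scale in the libraries labelled O/E and −0.13, −0.13 and −0.078 in the empty vector libraries. Between 60 and 80 Mb it was 0.16, 0.059 and 0.10 in the libraries labelled O/E and −0.11, −0.12 and −0.070 in the empty vector libraries. The 3 values of each group did not overlap in either part. The first library labelled O/E had the largest deviation and the second the smallest in both parts. On the rest of the chromosome the medians were −0.025, 0.014 and −0.023 in the libraries labelled O/E and 0.011, 0.019 and 0.0062 in the empty vector libraries, and these groups overlapped.

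**Figure D2:**
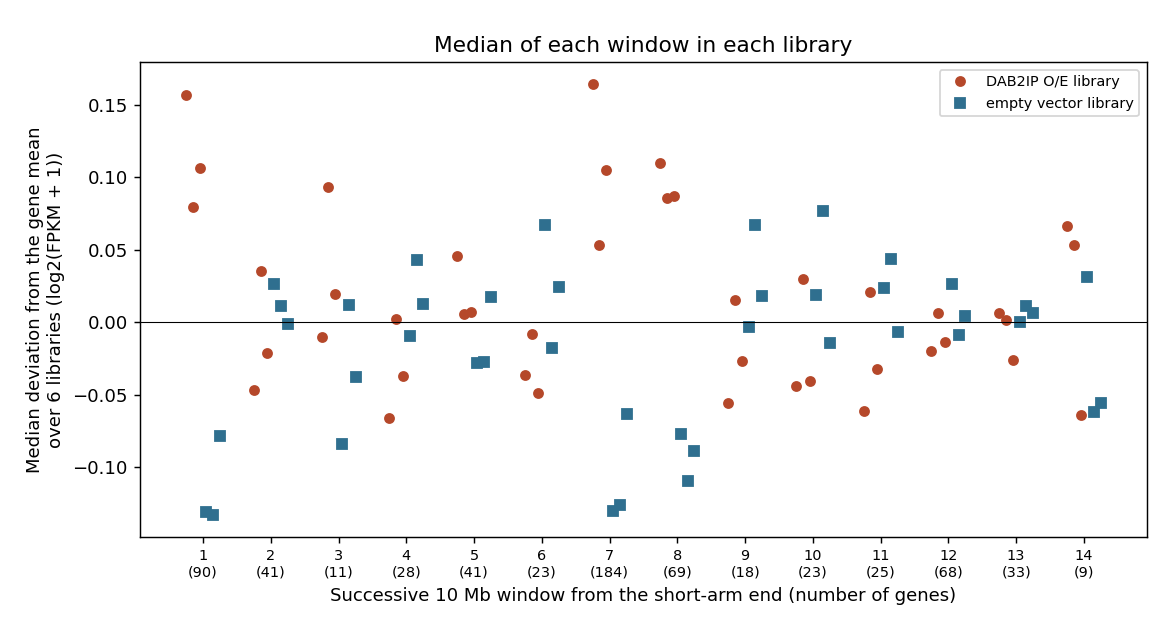
The median deviation from the gene mean over the 6 libraries is plotted for each library in successive windows of 10 Mb, with circles for the libraries labelled O/E, squares for empty vector libraries and the number of genes in parentheses. Windows 1, 7 and 8, the first 10 Mb and 60 to 80 Mb, have every circle above every square, with circles from 0.053 to 0.16 and squares from −0.13 to −0.063.

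Among the 212 windows of 10 Mb over the genome that held at least 20 tested protein-coding genes, ordered from the highest median log2 change, the first 10 Mb of chromosome 11 ranked 2, 60 to 70 Mb ranked 3 and 70 to 80 Mb ranked 4. Of the 212 windows only 1 of chromosome 17, with a median of 0.24, was higher. With trends with GC content and exon length removed, the ranks were 1, 7 and 4. The median GC content of transcripts was 56.3%, 58.6% and 50.6% in the 3 windows of chromosome 11.

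GC content moved with the log2 change over the whole genome, and the raised parts were richer in GC. The median GC content of the longest transcript was 56.3% in the first 10 Mb and 56.99% between 60 and 80 Mb, against 44.7% on the rest of the chromosome. With genes divided at 43.8% and 53.5% GC, which split all protein-coding genes tested into equal parts, genes of other chromosomes had median log2 changes of −0.071, −0.0078 and 0.074 from the GC-poorest to the GC-richest class. In the first 10 Mb the medians were 0.11 over 12 genes, 0.13 over 26 and 0.34 over 52. Between 60 and 80 Mb they were 0.11 over 15 genes, 0.14 over 65 and 0.22 over 173. On the rest of chromosome 11 they were −0.058 over 147 genes, −0.0099 over 111 and 0.051 over 61. Within each GC class the raised parts were therefore above the rest of the chromosome and above other chromosomes. With trends of log2 values with GC content and exon length removed, the median was 0.21 in the first 10 Mb, 0.15 between 60 and 80 Mb and 0.0010 on the rest.

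**Figure D3:**
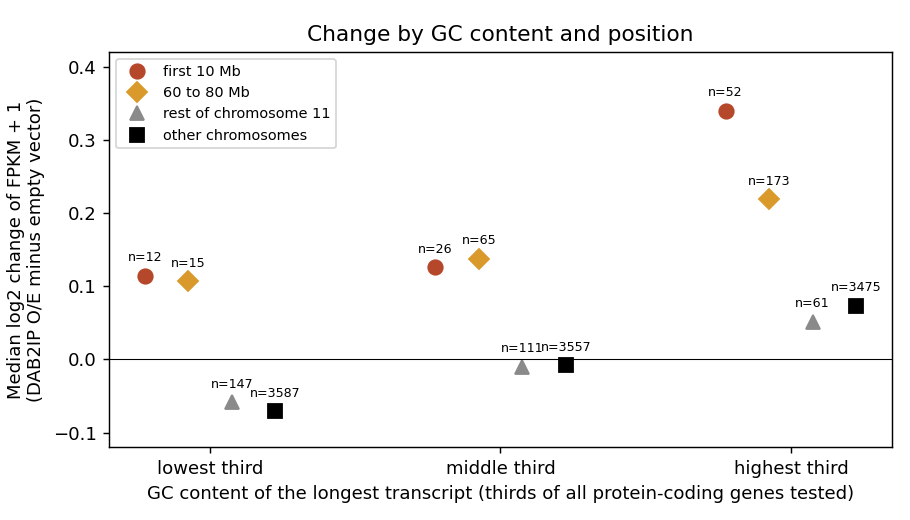
The median log2 change is plotted for genes in 3 classes of transcript GC content, from low to high, with the number of genes above each point. The first 10 Mb and 60 to 80 Mb lie from 0.11 to 0.34, above the rest of chromosome 11 and other chromosomes in each class, and all 4 series increase with GC content.

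On the scale of the log2 change, the medians were of like size in weak and strong genes. For the same ratio of FPKM, the constant added before the log makes this change smaller in weak genes than in strong genes. Whether ratios of FPKM without that constant were also alike was not tested. With genes divided at 4.26 and 11.9 FPKM of mean level, the median log2 change was 0.26, 0.20 and 0.20 from the weakest to the strongest genes of the first 10 Mb, over 35, 28 and 27 genes. Between 60 and 80 Mb it was 0.16, 0.22 and 0.20, over 56, 87 and 110 genes. The noncoding genes and pseudogenes of the same places, which are no members, did not follow alike. Over 18 of them in the first 10 Mb the median was 0.12, over 61 between 60 and 80 Mb it was −0.024 with 30 positive, and over 83 on the rest it was −0.014. Their exon length had a median of 544 bases between 60 and 80 Mb, against 4323 bases for the protein-coding genes there. The sources used here do not say whether counting used the strand, and overlapping or antisense genes are uncertain for that reason.

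Near the short-arm end, genes of signalling, metabolism and the cell surface were among the raised members. HRAS, a Ras GTPase, was at 11.8, 9.65 and 10.3 FPKM in the libraries labelled O/E, against 7.54, 6.99 and 7.40 FPKM in the empty vector libraries, with all of the first group above the second. SMPD1, the lysosomal acid sphingomyelinase, was at 8.20, 8.19 and 8.09 FPKM in the libraries labelled O/E, against 5.39, 5.34 and 5.40 FPKM in the empty vector libraries, narrow groups that lay far apart. CTSD, the lysosomal aspartic protease cathepsin D, averaged 73.1 ± 7.53 FPKM in the libraries labelled O/E and 48.7 ± 6.53 FPKM in the empty vector libraries (SD, n = 3 each), although 41.7% of its exon bases are shared with the readthrough gene AC068580.4. The tetraspanin CD151, a partner of integrins at the membrane, had a log2 change of 0.48, CD81 of 0.39 and TSPAN4 of 0.64, which was the largest in the first 10 Mb. PNPLA2, the triglyceride lipase that starts fat breakdown, had 0.43, the pentose phosphate enzyme TALDO1 0.35, the mitochondrial deacetylase SIRT3 0.32 and the interferon regulatory factor IRF7 0.42. IRF7 passed the filter only through the libraries labelled O/E, with 1.36 FPKM there on average and 0.761 FPKM in the empty vector libraries.

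In the imprinted domain of the short arm, the expressed genes had positive values. Of its 10 listed members 6 were tested, each with a positive log2 change, a median of 0.35 and 2 called higher. TSSC4 averaged 4.95 ± 0.553 FPKM in the libraries labelled O/E and 3.04 ± 0.397 FPKM in the empty vector libraries (SD, n = 3 each) and had a log2 change of 0.56. CDKN1C, an inhibitor of cyclin-dependent kinases, was at 2.31, 2.06 and 1.97 FPKM in the libraries labelled O/E, against 1.74, 1.49 and 1.09 FPKM in the empty vector libraries and did not pass. The interferon-induced and TRIM genes of the first 10 Mb were mixed, with 3 of 11 called higher, 2 lower and 6 not passing. IFITM1, an antiviral membrane protein, went the other way from its neighbours at 23.1, 22.9 and 22.3 FPKM in the libraries labelled O/E, against 35.4, 35.3 and 35.8 FPKM in the empty vector libraries, a log2 change of −0.62 and the largest called fall on the chromosome. IFITM2 had a log2 change of −0.21 and IFITM3 of −0.087, and these near-identical genes share exon bases, so reads may be divided among them. IFITM2 lost its call without the third O/E library or without the second empty vector library, which left 1 of the 2 genes called lower. Without the third O/E library 1 gene of the imprinted domain and 0 interferon-induced or TRIM genes were called higher, and without the first 1 of the interferon-induced or TRIM genes was. RRM1, the large subunit of ribonucleotide reductase, was at 42.7, 45.3 and 42.99 FPKM in the libraries labelled O/E, against 44.2, 43.9 and 45.6 FPKM in the empty vector libraries, and its groups overlapped.

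Between 60 and 70 Mb raised members came from many pathways. PRDX5, a peroxiredoxin that removes peroxides, was at 229.7, 207 and 215 FPKM in the libraries labelled O/E, against 155, 164 and 164 FPKM in the empty vector libraries. CTSF, the lysosomal cysteine protease cathepsin F, was at 19.3, 19.6 and 19.8 FPKM in the libraries labelled O/E, against 11.96, 13.1 and 13.1 FPKM in the empty vector libraries. Both were separated between the groups. BSCL2, the lipid droplet protein seipin, averaged 13.2 ± 0.415 FPKM in the libraries labelled O/E and 9.36 ± 0.325 FPKM in the empty vector libraries (SD, n = 3 each), though 40.6% of its exon bases are shared with the readthrough gene HNRNPUL2-BSCL2. RELA, the p65 subunit of NF-kB, had a log2 change of 0.30, the deubiquitinase OTUB1 0.40, the co-chaperone DNAJC4 0.58, the histone demethylase KDM2A 0.23 and the detoxifying enzyme GSTP1 0.28. FAM89B had the largest log2 change there, 0.74, and shares 70.6% of its exon bases with SSSCA1. The menin gene MEN1 had a log2 change of 0.16 and did not pass.

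In the CCND1 neighbourhood, toward 70 Mb, values were small. Of its 6 tested genes 1 was called higher, with a median of 0.13, and the call held when the second O/E library was left out and was lost when any other library was. CCND1, the G1 cyclin D1, was at 33.1, 26.6 and 28.7 FPKM in the libraries labelled O/E, against 38.97, 29.5 and 27.8 FPKM in the empty vector libraries, and the groups overlapped. The death adaptor FADD had a log2 change of 0.14 and the actin-binding cortactin gene CTTN of 0.17, with CTTN averaging 38.1 ± 1.66 FPKM in the libraries labelled O/E and 33.7 ± 1.18 FPKM in the empty vector libraries (SD, n = 3 each). Farther along, 11 of the 16 tested genes of the PAK1 neighbourhood were called higher and 1 lower, with a median of 0.32. AQP11, 1 of the 11, averaged under 1 FPKM in the empty vector libraries, so it passed the filter only through the libraries labelled O/E. The share called higher was 41.9% between 60 and 80 Mb and 10.2% over all protein-coding genes tested. Leaving out 1 library gave 8 to 10 higher. The 1 lower, GAB2, stayed only without the second O/E or the first empty vector library. This neighbourhood overlaps the run from RPS3 to USP35, which was chosen after its values were seen. PAK1, a kinase that acts downstream of Rac and Cdc42, was at 57.4, 55.5 and 54.7 FPKM in the libraries labelled O/E, against 42.7, 41.3 and 41.7 FPKM in the empty vector libraries. ALG8, a glucosyltransferase of N-glycan assembly, averaged 144 ± 3.76 FPKM in the libraries labelled O/E and 103 ± 2.93 FPKM in the empty vector libraries (SD, n = 3 each), a log2 change of 0.48. CAPN5, a calpain, had a log2 change of 0.74, the largest between 60 and 80 Mb, KLHL35 0.70, the ceramidase ACER3 0.49 and the collagen chaperone SERPINH1 0.39. CLNS1A, a chaperone of spliceosome assembly and the most abundant member between 76 and 80 Mb, was at 306, 308 and 306 FPKM in the libraries labelled O/E, against 293, 280.4 and 281 FPKM in the empty vector libraries, and the groups did not overlap. The chromatin remodelling factor RSF1 had a log2 change of 0.15 and EMSY 0.16, and neither passed.

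A few genes of the long-arm part were lower in the libraries labelled O/E. They were CHKA, FOLR1, THRSP and GAB2, the 4 called lower of 253. FOLR1, the folate receptor alpha that serves as an antigen of ovarian carcinoma, was at 21.9, 21.02 and 20.7 FPKM in the libraries labelled O/E, against 23.2, 30.5 and 32.2 FPKM in the empty vector libraries, with the first empty vector library closest to the other group. The call of FOLR1 held when that library was left out and was lost when any other was. GAB2, a docking protein of receptor tyrosine kinases, was at 6.85, 7.57 and 6.68 FPKM in the libraries labelled O/E, against 8.18, 9.47 and 9.64 FPKM in the empty vector libraries. It lies next to USP35 at the end of the raised part. The count of 4 was 0 without the first or the third library labelled O/E, 1 without the second, 0 without the second empty vector library and 2 without the third.

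**Figure D4:**
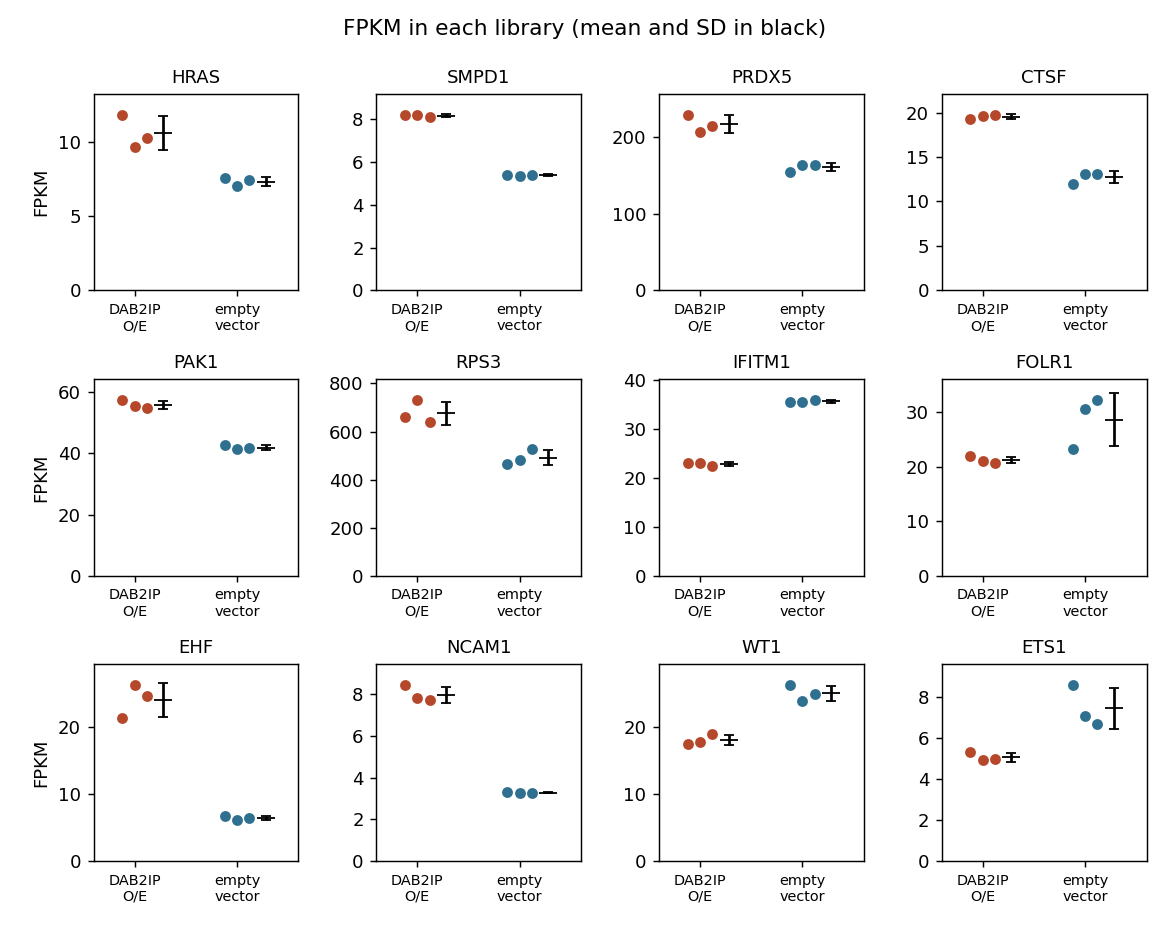
FPKM in each library (points) is plotted for 12 members, with the libraries labelled O/E on the left, empty vector on the right, and the mean and SD in black. HRAS, SMPD1, PRDX5, CTSF, PAK1, RPS3, EHF and NCAM1 are higher in the libraries labelled O/E and IFITM1, FOLR1, WT1 and ETS1 lower, without overlap of the groups, and EHF has the largest ratio, with averages of 24.03 FPKM in the libraries labelled O/E and 6.39 FPKM in the empty vector libraries.

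Lists of genes with one function are given by place, as counts and medians with no test between places, and their counts stand beside shares of 10.2% called higher and 9.73% called lower over all protein-coding genes tested. Many counts on the rest of the chromosome are near what these shares give. In the raised parts as a whole, 43.3% of genes tested in the first 10 Mb and 41.9% between 60 and 80 Mb were called higher. Many list counts in the raised parts are near these shares, so they are not read as results about a function. All these shares are from the fit with all 6 libraries. Counts with a library left out have no such share beside them, so a fall in them is not read as particular to a list. Of the ribosomal and translation genes, 5 of the 7 in the raised parts were called higher, with a median of 0.26, and none of the 4 on the rest was, with a median of −0.069 and 1 called lower. The 5 became 2 without any one of the O/E libraries or without the second empty vector library, and 3 without the first empty vector library. RPS3, a protein of the small ribosomal subunit at 75.4 Mb, was at 659, 731 and 638 FPKM in the libraries labelled O/E, against 465, 483 and 525 FPKM in the empty vector libraries. EIF4G2, a translation initiation factor at 10.8 Mb, was at 229, 239 and 229 FPKM in the libraries labelled O/E, against 292, 281 and 285 FPKM in the empty vector libraries. Both have groups that do not overlap, in opposite directions, and ribosomal protein genes have processed copies elsewhere that can divide reads. The elongation factor gene EEF1G shares 99.9% of its exon bases with AP002990.1, so its log2 change of 0.26 is shared with that gene.

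Of the genes for the respiratory chain and mitochondrial metabolism, 6 of 10 in the raised parts were called higher, with a median of 0.28 and 10 positive, and 0 of 7 entries on the rest, with a median of −0.053 and 2 positive. SDHD stands in the table as 2 overlapping entries, and with the more abundant alone the median of the 6 genes was −0.051. The 6 called higher became 1 without the third O/E library, and 2 without the first O/E library or without the first or the second empty vector library. NDUFC2, a subunit of complex I, averaged 225 ± 5.51 FPKM in the libraries labelled O/E and 159.8 ± 17.7 FPKM in the empty vector libraries (SD, n = 3 each), though 16.3% of its exon bases are shared with NDUFC2-KCTD14. NDUFV1, which carries the flavin site of complex I, had a log2 change of 0.26, while NDUFS3, another complex I subunit that lies on the rest, had −0.068. For the mitochondrial ribosome the counts called higher were 3 of 6 in the raised parts, with a median of 0.20, and 0 of 1 on the rest. For the proteasome and ubiquitin they were 2 of 4 with a median of 0.21, and 0 of 9 with a median of −0.032 on the rest, where 1 was called lower. Without the third O/E library 1 gene of the mitochondrial ribosome was called higher, and 1 of the proteasome and ubiquitin when any library but the third empty vector library was left out.

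Kinase and signalling genes had 7 of 15 called higher and 1 lower in the raised parts, with a median of 0.25, and 1 higher and 1 lower of 6 on the rest, with a median of −0.062. The 7 became 4 without the first O/E library, the 1 higher on the rest became 0 whichever library was left out, and the 1 lower there, ETS1, became 0 without the third O/E library. The 1 lower in the raised parts, GAB2, became 0 without the first or the third O/E library and without the second or the third empty vector library. Chromatin regulators had 2 of 7 higher with a median of 0.16, and 1 of 4 lower with a median of −0.14 on the rest, namely KMT2A, a histone methyltransferase, with a log2 change of −0.24. Its adjusted p of 0.0384 was 0.140 without the third library labelled O/E (limma, Benjamini-Hochberg), and the call was lost whichever library was left out. The 2 chromatin regulators higher in the raised parts, SIRT3 and KDM2A, became 0 without the third O/E library and 1 without the second empty vector library. SIRT3, a mitochondrial deacetylase, is also counted as higher in the list for the respiratory chain and mitochondrial metabolism. Replication, repair and mitosis genes had 2 of 13 higher in the raised parts and a median of 0.10, against 1 higher and 2 lower of 10 on the rest and a median of −0.10. MUS81, a nuclease of recombination, and the checkpoint clamp gene RAD9A were those higher in the raised parts, with log2 changes of 0.34 and 0.32. Their count became 0 without the first or the third O/E library or the second empty vector library, and 1 without the first or the third empty vector library. The 2 lower on the rest, KIF18A and SSRP1, became 0 without those same 3 libraries and 1 without the second O/E or the first empty vector library, and the call of the 1 higher there held only when the third empty vector library was left out. Lipid and sterol enzymes had 5 of 10 higher in the raised parts and 0 of 2 on the rest. Lysosomal enzymes had 3 of 4 higher in the raised parts, with a median of 0.55, and 1 of 2 on the rest. Iron, redox and xenobiotic genes had 3 of 5 higher with a median of 0.28, and 0 of 2 on the rest. Cytoskeleton, adhesion and tetraspanin genes had 5 of 7 higher with a median of 0.35, and 2 of 6 on the rest with a median of 0.033. Heat shock genes had 2 of 4 higher with a median of 0.27, and 0 of 4 on the rest with a median of −0.013. Without the third O/E library the counts higher in the raised parts were 3 of 10 lipid and sterol, 2 of 4 lysosomal, 1 of 7 cytoskeleton, adhesion and tetraspanin and 1 of 4 heat shock genes. Without the first O/E library they were 3 of 10, 3 of 4, 3 of 7 and 1 of 4, without the first empty vector library 3 of 10, 3 of 4, 3 of 7 and 2 of 4, and without the second 4 of 10, 3 of 4, 3 of 7 and 1 of 4. On the rest the call of the 1 lysosomal enzyme held only when the third empty vector library was left out, and the 2 cytoskeleton, adhesion and tetraspanin genes became 1 without the first or the third O/E library. All these lists were drawn up with earlier results of these data known.

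**Figure D5:**
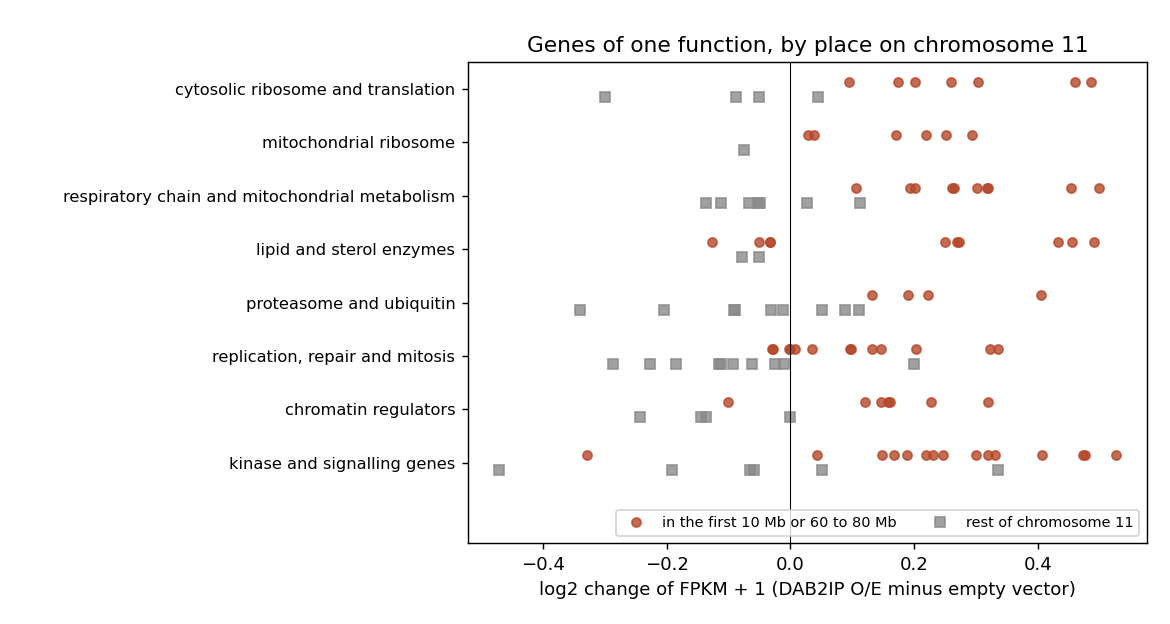
The log2 change of single genes is plotted for 8 functional lists, with circles for genes in the first 10 Mb or between 60 and 80 Mb and squares for genes on the rest of chromosome 11. Circles of the respiratory chain list lie from 0.11 to 0.50 and its squares from −0.14 to 0.11.

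The largest called rises lay on the rest of the chromosome, at scattered places. Of the 8 largest called rises on chromosome 11, 6 were there, and of the 8 largest called falls likewise 6. EHF, an epithelial ETS transcription factor on the short arm, was at 21.3, 26.2 and 24.6 FPKM in the libraries labelled O/E, against 6.66, 6.08 and 6.43 FPKM in the empty vector libraries. Its log2 change was 1.76 with an SE of 0.079 and 8.74e-05 as its adjusted p (limma, Benjamini-Hochberg). NCAM1, a neural cell adhesion molecule, was at 8.43, 7.84 and 7.71 FPKM in the libraries labelled O/E, against 3.29, 3.29 and 3.27 FPKM in the empty vector libraries, a log2 change of 1.07 with an SE of 0.053 and 0.000108 as its adjusted p (limma, Benjamini-Hochberg). MUC15, a membrane mucin, averaged 5.70 ± 0.164 FPKM in the libraries labelled O/E and 2.20 ± 0.0840 FPKM in the empty vector libraries (SD, n = 3 each). CADM1, an adhesion molecule also known as a tumour suppressor, averaged 1.68 ± 0.0587 FPKM in the libraries labelled O/E and 0.372 ± 0.0214 FPKM in the empty vector libraries, and ADAMTS15, a secreted metalloprotease, 7.94 ± 0.168 FPKM in the libraries labelled O/E and 3.48 ± 0.188 FPKM in the empty vector libraries (SD, n = 3 each). CADM1 passed the filter of 1 FPKM only through the libraries labelled O/E. The stromelysin MMP10 was at 5.77, 7.07 and 5.92 FPKM in the libraries labelled O/E, against 0.570, 1.65 and 2.53 FPKM in the empty vector libraries, groups that did not overlap, although the empty vector libraries spread widely.

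Among the falls, WT1, the Wilms tumour transcription factor that marks serous ovarian carcinoma, was at 17.4, 17.8 and 18.9 FPKM in the libraries labelled O/E, against 26.2, 23.9 and 24.98 FPKM in the empty vector libraries, a log2 change of −0.45 with an SE of 0.053 and 0.00295 as its adjusted p (limma, Benjamini-Hochberg). ETS1, a further ETS factor near the long-arm end, was at 5.34, 4.94 and 4.97 FPKM in the libraries labelled O/E, against 8.59, 7.11 and 6.69 FPKM in the empty vector libraries, a log2 change of −0.47 with an SE of 0.086 and 0.0129 as its adjusted p (limma, Benjamini-Hochberg). ETS1 had an adjusted p of 0.0535 when the third O/E library was left out (limma, Benjamini-Hochberg). SERPING1, an inhibitor of the complement cascade, had a log2 change of −0.49, the signalling repressor UBASH3B −0.42, the receptor LRP4 −0.42 and the NOTCH coactivator MAML2 −0.39. The calls of UBASH3B and LRP4 did not hold when the third O/E library was left out, at adjusted p-values of 0.0758 and 0.0847, and that of MAML2 without the first, with 0.0722 (limma, Benjamini-Hochberg). UBASH3B passed the filter only through the empty vector libraries, with 0.994 FPKM in the libraries labelled O/E on average and 1.66 FPKM in the empty vector libraries. The count of 25 lower on the rest was 9, 13 and 6 without the first, the second and the third library labelled O/E, and 16 and 9 without the first and the second empty vector library. The damage kinase ATM was at 1.49, 1.77 and 1.46 FPKM in the libraries labelled O/E, against 1.72, 1.90 and 1.73 FPKM in the empty vector libraries and did not pass.

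The 225 members below the filter were weak or silent genes. There were 34 in the first 10 Mb, 65 between 60 and 80 Mb and 126 on the rest, with median levels of 0.0996, 0.146 and 0.168 FPKM. The globin genes in the table, 2 in number, and the 1 olfactory receptor gene were among them, that receptor gene at 0.0479 FPKM on average. CD44, the hyaluronan receptor, was at 0.600, 0.589 and 0.509 FPKM in the libraries labelled O/E, against 1.39, 0.649 and 0.663 FPKM in the empty vector libraries, and the first empty vector library was the highest.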

How the data were processed

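Poly-A RNA of 6 OVCAR3 libraries was sequenced, and the authors deposited FPKM per gene and library, per the file headers and labels. Their deposited comparison table, per the file headers, holds gene positions, a mean normalised count (a signal), a log2 fold change with its SE, which against the FPKM is empty vector over O/E and is turned in sign here, the test statistic as a score, and p-values before and after adjustment. The submitters' processing notes name DESeq2 1.12.4, R 3.3.1, TopHat2 2.1.1, Trimmomatic 0.32 and Bowtie, and the builds GRCh38.p5 and hg19, without roles. Not given in the sources used here are the counting tool, annotation and strand setting. Of the 888 members, 806 had the same identifier version and coordinates in GENCODE release 29, a GRCh38 annotation, so positions are given in that build.

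FPKM times mean normalised count over mean FPKM gave whole reads once divided by 1 constant for each library, with 100% of values no more than 0.001 from an integer. Values of log2(FPKM + 1) were tested, 2-sided, in limma 3.58.1 (R 4.3.3, with a trend) for the 14761 genes averaging 1 FPKM or more, adjusted by Benjamini-Hochberg, threshold 0.05. It was tested on simulated data. No libraries were duplicates, with a chi-square per degree of freedom of at least 3.61 between any pair.

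Members, lists and stretches were chosen with earlier results of these data known. Up to 4 members per list, the 8 largest rises and falls, genes at the limits, the 4 most abundant per raised part and 11 fixed genes could be named, and genes outside this rule were chosen after their values were seen. Promoters came from RefSeq (GRCh38.p14). Alternatives were other pseudocounts, filters, scalings, limma settings, a replicate block, removal of GC and length trends, single libraries left out, gene midpoints and genes without overlaps.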

Additional observations from a re-analysis of the deposited data

How the results depend on the processing

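The median log2 change of both raised parts kept its sign under every alternative run, a direction that the choice of these parts favours. In the first 10 Mb it was 0.23, and it was 0.17 with no filter, 0.27 with a pseudocount of 0.1, 0.28 on log2 normalised reads, 0.28 with limma-voom on the recovered reads and 0.28 from the authors' deposited table. Between 60 and 80 Mb it was 0.20, and 0.15 with GC and length trends removed, with or without a replicate block. On the rest it was −0.028, and 0.0010 with those trends removed, with or without the replicate block, −0.054 with equal library medians and −0.011 with no filter. Leaving out 1 library gave medians of 0.20 to 0.25, 0.18 to 0.23 and −0.041 to −0.019 in the 3 places.

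Counts of calls moved more. They are given without the number of genes tested or the share over all genes under each alternative, so they are not read as rates. Leaving out 1 library gave 15 to 35, 36 to 102 and 14 to 28 genes higher, and 1 to 2, 0 to 4 and 6 to 22 lower. Without genes that overlap another gene, 19, 45 and 19 were higher and 0, 2 and 12 lower, among fewer genes. The part of overlaps in the calls was not tested. With a filter of 5 FPKM 24 and 20 were higher in the first 10 Mb and on the rest, again among fewer genes. With no filter 2 and 16 were lower between 60 and 80 Mb and on the rest, and on the rest 44 were lower on log2 normalised reads and 42 with limma-voom. The cause was not tested. With a replicate block 34, 89 and 29 genes were higher. Libraries with the same number had deviations that correlated at 0.058 to 0.12, weak values but each above the −0.12 to 0.018 of libraries with different numbers. Whether the numbers pair the libraries was not tested, and the main fit did not use them.

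Of the named genes, none that was called turned its sign. Over the fits that each left out 1 library, the uncalled log2 change of CCND1 was −0.20 to 0.036, that of FTH1 −0.17 to 0.0082, that of CASP4 −0.0090 to 0.070 and that of NARS2 −0.0065 to 0.057. NARS2 was at −0.0041 with equal library medians, and the log2 change of RRM1 was 0.000482 with GC and length trends removed, with or without the replicate block.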
